A study of Mus musculus with 52 samples.

Results

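Among small RNA libraries made from mouse gonadal white fat, 19 male libraries were divided by their level of the precursor of mir-205. They are the Q20, Q80, Q92, Q111 and Q140 males of the library series with L1 or L3 in the column names. These marks are read here as lanes 1 and 3, although no label explains them. The males make up 19 of the 52 libraries of the study. A library was called high at 40 CPM or more (the precursor's estimated count over the library's total, scaled to a total of 1000000 counts) and low under 40 CPM. This gave 9 high and 10 low libraries. The remaining 33 libraries, from all females and from the WT and Q175 males, had no part in the division.

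All mice were C57BL/6 and 6 months old. Each of the 19 males carried, in 1 copy, a knock-in allele of a Huntington's disease series, named by its CAG repeat length. Q20 is the shortest of these and was the reference allele of the fits. There were 4 libraries each of Q20, Q80, Q111 and Q140 and 3 of Q92. No treatment is given in the labels. Q20 mice were caged with wild-type and Q20 mice, and the mice of the other alleles were caged with their own kind. The 33 other libraries came from WT and Q175 mice of both sexes and from females of the same 5 alleles. The WT and Q175 libraries belong to another series, marked L5 and read here as lane 5. Their differences of level from the 19 males cannot be told apart from those of the series. Since no label says plainly that each library is another animal, p-values here may measure technical spread alone.

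In mice, miR-205 is a microRNA of stratified and glandular epithelia such as skin, mammary gland and prostate, where it is known for keeping cells in an epithelial state. It is cut from a hairpin precursor, and one arm of the hairpin then guides silencing of messenger RNAs that pair with its seed. In male mice the gonadal fat pad lies against the epididymis, a duct lined by epithelium.

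The sequences of mir-205 are given because this precursor defines the division. They are from RefSeq on build GRCm38.p6, where the hairpin lies on the minus strand at chr1:193507463-193507530. The arm cut from the 5′ side lies at chr1:193507503-193507524 and the arm from the 3′ side at chr1:193507467-193507488. In GENCODE M21 the hairpin lies within an exon, from 193507238 to 193508899, of the lincRNA gene 4631405K08Rik on the same strand. Capitals mark both mature arms in the hairpin, and the seed, bases 2 to 8, in each mature sequence.
Mir205 hairpin: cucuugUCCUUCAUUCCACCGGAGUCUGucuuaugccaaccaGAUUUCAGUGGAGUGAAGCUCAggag
mmu-miR-205-5p: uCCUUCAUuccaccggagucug
mmu-miR-205-3p: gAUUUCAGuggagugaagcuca
Each of the seeds occurred in 1 of the 1738 mature mouse miRNAs in the RefSeq table, so neither is shared with another miRNA there. The hairpin is 68 nucleotides long, and the length of the mir-205 precursor recovered from the ratio of the deposited counts and RPKM values was also 68. Counts are per precursor, so that the arms cannot be told apart.

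The other precursors are identified by miRBase accession alone and the files pair them with no name, so they are given no name and no role. Of 15 lists of epithelial, gonadal, fat, muscle, blood and other marker miRNAs, with 170 members, mir-205 was the 1 member that could be matched. The tissue behind the division was therefore not checked against other markers. Total estimated counts of the 19 libraries ran from 2403830 to 5433605 (mean 3522291 ± 825488 SD, n = 19), and 3 counts, taken as the floor of detection, came to between 0.552 and 1.25 CPM. Floors and totals speak to counting error only. The library labelled Q140 male replicate 4, a low library, stood apart in precursors MI0000553 and MI0001151, a pair chosen from earlier results of these data in which most females lay above most males. The pair did not part the sexes in the high libraries, where 1 male reached the lowest female for MI0000553 and 3 did for MI0001151, and both are among the 32 higher precursors described below. Q140 male replicate 4 held 759.97 CPM of MI0000553, where the other low males held at most 28.0 CPM, the 18 other males 4.25 to 478 CPM and 24 female libraries 472 to 1287 CPM. It held 689 CPM of MI0001151, where 24 female libraries ran from 506 to 891 CPM and the 18 other males ran from 10.7 to 1442 CPM with a median of 50.7 CPM. The library labelled Q140 female replicate 2 held 18.2 and 27.3 CPM of the same precursors, which is within the range of the males and below that of the 24 females. Whether the labels of these 2 libraries were exchanged could not be settled from the files, so the sex of a low library and of a Q140 female library is in doubt. The number of precursors at least 1 log2 unit apart and the slopes are given without them as well, and other values with them unless said otherwise.

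The mir-205 precursor spanned from 4.60 CPM (17 counts) to 3019 CPM (11166 counts) among the 19 libraries. These values made the division and are given as a description. The 10 low libraries had a median of 9.32 CPM. From lowest to highest they were Q20 replicate 3 at 4.60, Q20 replicate 1 at 5.80, Q140 replicate 4 at 7.02, Q20 replicate 4 at 8.29, Q80 replicate 4 at 8.45, Q140 replicate 2 at 10.2, Q92 replicate 1 at 11.9, Q111 replicate 4 at 12.5, Q111 replicate 3 at 13.6 and Q111 replicate 2 at 39.6 CPM. The first 9 of these lay close together, and the tenth lay just under the limit. The 9 high libraries had a median of 761 CPM. They were Q111 replicate 1 at 50.8, Q80 replicate 3 at 102.8, Q140 replicate 1 at 141, Q80 replicate 2 at 464.5, Q20 replicate 2 at 761, Q92 replicate 3 at 949.9, Q80 replicate 1 at 1459, Q92 replicate 2 at 1539.9 and Q140 replicate 3 at 3019 CPM. The members nearest the limit, at 39.6 and 50.8 CPM, were both Q111 males. Every one of the 5 alleles had at least 1 library on each side.

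**Figure D1:**
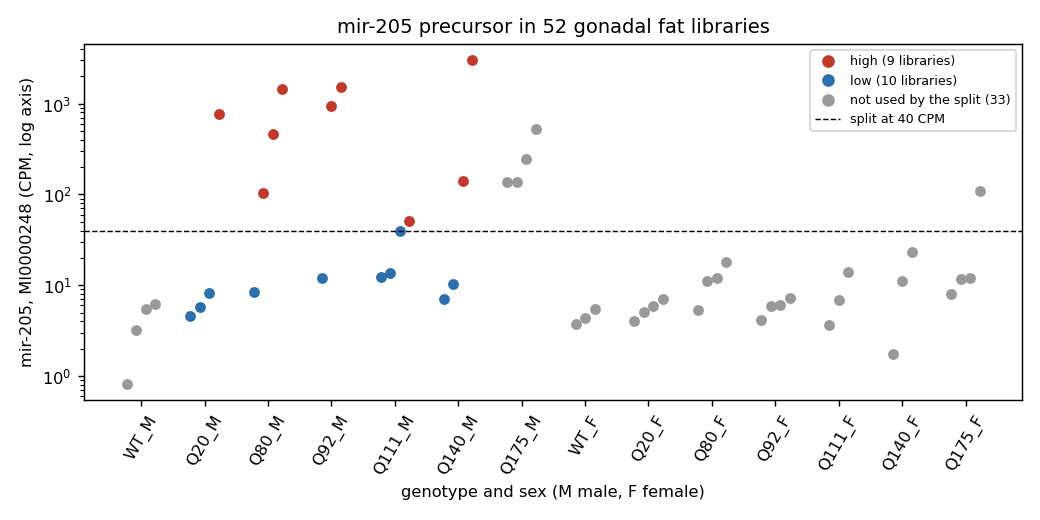
Level of the mir-205 precursor (CPM, log axis) in each of the 52 libraries by genotype and sex, 1 point per library, with the dashed line at 40 CPM. The 9 high males run from 50.8 to 3019 CPM, the 10 low males from 4.60 to 39.6 CPM, and 5 of the 33 other libraries reach 40 CPM.

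Whether the high libraries followed the allele or the lane was tested, since the division used neither. The library total is the denominator of CPM and so enters the division, and the planned comparison of depth is not independent of it. High libraries were 1 of 4 in Q20, 3 of 4 in Q80, 2 of 3 in Q92, 1 of 4 in Q111 and 2 of 4 in Q140. This did not pass the Fisher-Freeman-Halton exact test (2-sided p = 0.621; the smallest p these margins allow is 0.000195). Of the lane 1 libraries 6 of 12 were high, and of the lane 3 libraries 3 of 7 (odds ratio 1.33; 2-sided Fisher exact p = 1). High libraries held a mean total of 3845029 ± 1058841 estimated counts (SD, n = 9) and low libraries 3231827 ± 410346 (SD, n = 10). The difference of 613202 did not pass a 2-sided exact permutation test (p = 0.108). It passed with the division at 100 CPM (exact permutation p = 0.0211), without Q111 male replicate 1 (p = 0.0343) and without Q80 male replicate 1 (p = 0.0373), and the larger totals lay in the high libraries in each case.

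By edgeR the allele gave no call in these males, and by DESeq2 it gave calls for a few precursors but not for mir-205. The mir-205 precursor averaged 195 ± 378 CPM in Q20 (SD, n = 4), 509 ± 663 in Q80 (n = 4), 834 ± 771 in Q92 (n = 3), 29.1 ± 19.1 in Q111 (n = 4) and 794 ± 1484 in Q140 (n = 4). Without Q140 replicate 4 the Q140 mean was 1057 ± 1700 CPM (SD, n = 3). In the order of the 5 means, Q111, Q20, Q80, Q140 and Q92, neighbouring groups overlap. edgeR's quasi-likelihood F test over the 5 alleles gave mir-205, MI0000248, a Benjamini-Hochberg adjusted p of 0.693, and 0.642 without Q140 replicate 4. Of the 370 precursors tested 0 had an adjusted p under 0.05 (0%), while 57 (15.4%) had an unadjusted p under 0.05. DESeq2's likelihood ratio test called 12, and edgeR called 3 without Q92 replicate 1, 2 without Q20 replicate 2 and 1 without Q92 replicate 2. Of the 32 precursors described next as higher in the high libraries, 8 had an unadjusted p under 0.05 for the allele, and their lowest adjusted p was 0.109 by edgeR. Precursor MI0000652 had the lowest p of all, with an adjusted p of 0.0936 in the edgeR test and of 7.7e-05 in the DESeq2 test. It averaged 209 ± 323 CPM in Q92 (SD, n = 3), with 582 CPM in Q92 replicate 2 alone, and between 8.81 and 20.8 CPM in the other 4 alleles. Leaving out single libraries moved its adjusted p between 0.0306 and 0.763.

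High minus low was then described over the other precursors, as the difference of group means of log2(CPM + 1), for the 246 precursors with a mean of at least 10 CPM over the 19 libraries. No test was run, because the division came from the same counts. Of the 246 precursors, 32 (13.0%) were at least 1 log2 unit higher in the high libraries and 7 (2.85%) were at least 1 lower. Among the 32, 27 were at least 2 higher, 15 at least 3, 9 at least 4 and 2 at least 5. The median of the 32 was 2.91, of the 7 it was -1.08, and of all 246 it was -0.14. The bulk of precursors moved little: 150 of 246 lay within 0.5 of 0, and 158 were below 0. In 0 of 246 precursors (0%) did all high libraries lie above all low libraries, and in 0 of 246 (0%) did all lie below. In a whole fat pad, fewer cells of a type and less RNA per cell cannot be told apart.

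The split of higher against lower precursors depends on the scaling. With TMM scaling, which sets the bulk of precursors level, 38 were at least 1 higher and 3 lower, and the median of all 246 moved to 0.01. With the 5 most abundant precursors left out of the library total, the counts were 60 higher and 3 lower, and the median was 0.11. All 32 higher precursors stayed above 0 and all 7 lower ones below 0 under these scalings. Both sets were chosen from these same libraries, so a kept sign was largely built in. Of the 7, 3 stayed at least 1 lower under each scaling. Without Q140 male replicate 4, 35 were higher and 8 lower, among them all 32 and all 7.

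**Figure D2:**
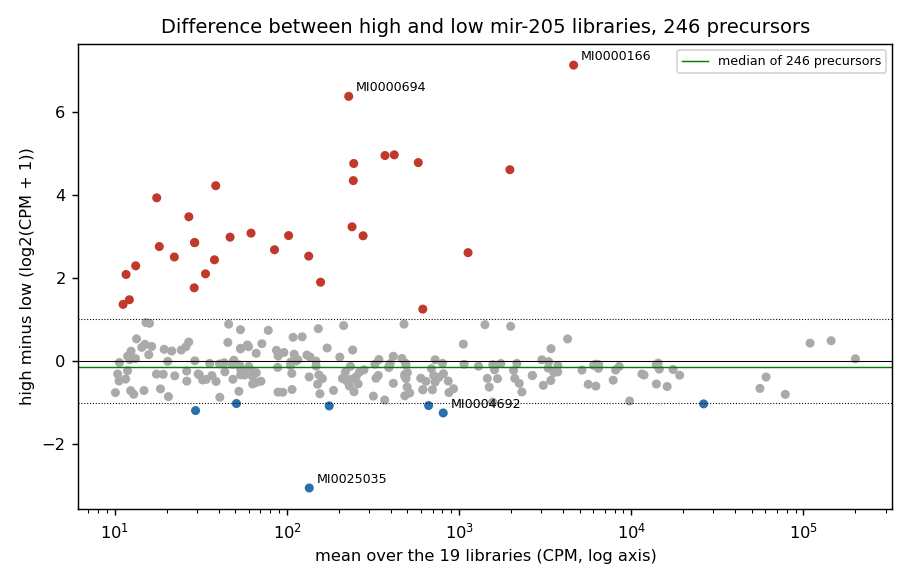
High minus low difference (log2(CPM + 1)) against the mean level over the 19 libraries (CPM, log axis) for 246 precursors, 1 point each, with dotted lines at 1 and -1 and a line at the median. The 32 higher precursors reach 7.12, the 7 lower ones reach -3.05, and the median of all lies at -0.14.

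Precursor MI0000166 had the largest difference. In the low libraries it lay at 4.87 (Q20 replicate 3), 12.2 (Q20 replicate 1), 7.54 (Q140 replicate 4), 16.6 (Q20 replicate 4), 48.1 (Q80 replicate 4), 27.6 (Q140 replicate 2), 31.3 (Q92 replicate 1), 114 (Q111 replicate 4), 19.9 (Q111 replicate 3) and 18.95 CPM (Q111 replicate 2). In the high libraries it lay at 793 (Q111 replicate 1), 47.3 (Q80 replicate 3), 1704 (Q140 replicate 1), 1329 (Q80 replicate 2), 1911 (Q20 replicate 2), 11234 (Q92 replicate 3), 17993 (Q80 replicate 1), 20395 (Q92 replicate 2) and 32136 CPM (Q140 replicate 3). In 8 of 9 high libraries it lay above every low library, the exception being Q80 replicate 3. The library labelled Q140 female replicate 2, whose sex is in doubt, is not counted here and held 2456 CPM at 23.0 CPM of mir-205. Were it a male it would be a low library, and several high libraries would lie below it in MI0000166. The means were 9727 ± 11490 CPM (SD, n = 9) and 30.2 ± 32.2 CPM (SD, n = 10), a log2 difference of 7.12 (SE 1.07). The SD of log2(CPM + 1) was 2.99 among high libraries and 1.23 among low ones. Within lane 1 alone the log2 difference was 6.67, and within lane 3 alone 7.89.

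Precursor MI0000694 showed the same arrangement of libraries. It lay between 0 and 10.1 CPM in the low libraries, with a median of 1.92 CPM, and 0 counts in Q20 replicate 1 allow up to 0.966 CPM there. In the high libraries it ran from 5.67 CPM in Q80 replicate 3 to 1382 CPM in Q140 replicate 3, with a median of 281 CPM. Again 8 of 9 high libraries lay above every low one, and Q80 replicate 3 did not. The library labelled Q140 female replicate 2, again not counted, held 212 CPM. The log2 difference was 6.36 (SE 0.84, n = 9 and 10). MI0000694 averaged under 10 CPM in the low libraries, so it passed the filter through the high libraries alone and had to differ.

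Many of the 32 higher precursors were scarce in the low libraries, where the median was under 10 CPM for 21 of the 32 and under 1 CPM for 12. The filter bears on this: 17 of the 32 had a mean under 10 CPM in the low libraries, so they passed through the high libraries alone and had to differ. With a mean of at least 50 CPM required, 17 precursors were at least 1 higher, and with 1 CPM, 55. The 32 were chosen for being higher, so their counts against the low median were largely built in. Those counts were not taken over all precursors. Above the low median in at least 8 of 9 high libraries were 28 of the 32, and 13 were above it in all 9. Their summed level was 0.0525% to 0.282% of a library's counts in the low libraries, with a median of 0.0906%, or 0.0853% without Q140 replicate 4 and with the same range. In the high libraries it was 0.0709% in Q80 replicate 3, 0.364% in Q140 replicate 1, 1.10% in Q111 replicate 1, 1.17% in Q20 replicate 2, 1.81% in Q80 replicate 2, 2.73% in Q92 replicate 3, 3.34% in Q80 replicate 1, 4.94% in Q92 replicate 2 and 5.82% in Q140 replicate 3. This is above every low library in 8 of 9 high libraries. The library labelled Q140 female replicate 2, whose sex is in doubt, is not counted here and held 2.49%. The 32 were chosen from these values, so the gap between the groups is a description.

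How many of the 32 lay above every low library differed widely between high libraries. There were 30 in Q92 replicate 2, 28 in Q92 replicate 3, 25 each in Q80 replicate 1 and Q140 replicate 3, 15 each in Q80 replicate 2 and Q111 replicate 1, 10 each in Q140 replicate 1 and Q20 replicate 2, and 1 in Q80 replicate 3. Of all 246 precursors, the share above every low library was 23.6% in Q92 replicate 2, 20.3% in Q92 replicate 3, 19.1% in Q80 replicate 1, 22.8% in Q140 replicate 3, 16.3% in Q80 replicate 2, 22.0% in Q111 replicate 1, 37 of 246 in Q140 replicate 1, 6.91% in Q20 replicate 2 and 28.0% in Q80 replicate 3. The order of mir-205 was not the order of these counts. Q80 replicate 3 held 102.8 CPM of mir-205, yet 31 of the 32 precursors lay within the range of the low libraries. Q111 replicate 1 held 50.8 CPM of mir-205 and had 15 above that range, with a summed share of 1.10%.

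**Figure D3:**
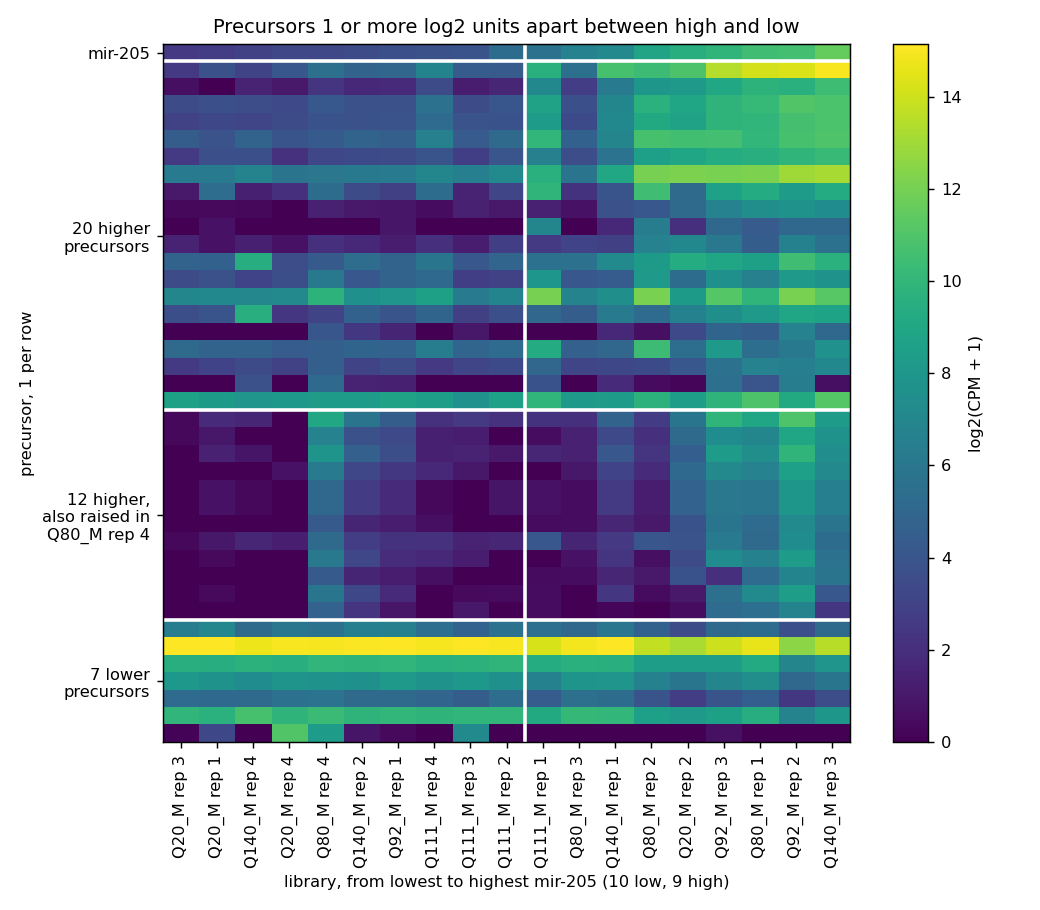
Levels (log2(CPM + 1), colour) of mir-205, the 32 higher precursors in their sets of 20 and 12, and the 7 lower precursors, 1 per line, in the 19 libraries ordered from lowest to highest mir-205. The set of 12 is raised in the low library Q80_M replicate 4 and in the high libraries Q92_M replicates 2 and 3, Q80_M replicate 1 and Q140_M replicate 3, and Q80_M replicate 3 looks like a low library.

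The 32 did not all vary together. In the low library Q80 replicate 4, 12 of them were at least 5 times as high as in the next low library, on CPM + 1. This set of 12 was chosen after its values were seen. Summed, it reached 1223 CPM in Q80 replicate 4, 142 CPM in Q140 replicate 2, 63.7 CPM in Q92 replicate 1 and at most 16.3 CPM in the other low libraries. Among high libraries it came to 12.02 CPM in Q80 replicate 3, 25.4 in Q111 replicate 1, 36.4 in Q80 replicate 2, 87.1 in Q140 replicate 1, 257 in Q20 replicate 2, 1255 in Q140 replicate 3, 1444 in Q80 replicate 1, 2088 in Q92 replicate 3 and 5555 CPM in Q92 replicate 2. Hence 4 of 9 high libraries exceeded 1000 CPM, as did a library with 8.45 CPM of mir-205. The other 20 summed to 697 to 56897 CPM in the high libraries (median 18075) and 512 to 2054 CPM in the low ones (median 831). The median difference was 3.70 for the 20 and 2.80 for the 12. MI0000553 and MI0001151 belong to the 20. Without Q140 male replicate 4 the low range of that sum ended at 1597 CPM, with a median of 817 CPM.

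The 7 lower precursors moved less. Together they held 3.09% to 3.83% of the low libraries (median 3.65%) and 0.615% to 3.82% of the high libraries (median 1.72%). In 7 of 9 high libraries their share lay under that of every low library, and in Q80 replicate 3 and Q140 replicate 1 it did not. The library labelled Q140 female replicate 2, not counted here, held 1.69%. Without Q140 replicate 4 the low range began at 3.29%. Precursor MI0004692 lay between 797 and 1707 CPM in the low libraries (median 986) and between 110 and 1086 CPM in the high ones (median 380.3), a log2 difference of -1.25 (SE 0.36, n = 9 and 10). It too overlapped only through Q80 replicate 3, at 1086 CPM, and Q140 replicate 1, at 1041 CPM.

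The largest negative difference, -3.05 (SE 1.32) for precursor MI0025035, rested on 3 low libraries. Its mean in the high libraries was under 10 CPM, so it passed the filter through the low libraries alone and had to differ. It held 2071 CPM in Q20 replicate 4, 329.5 CPM in Q80 replicate 4 and 147 CPM in Q111 replicate 3. All 9 high libraries and 5 of the 10 low libraries were under the floor of 3 counts for this precursor, as were 31 of the 33 other libraries, whose highest value was 5.16 CPM. Its estimated counts were whole in 10.5% of the 19 libraries, against 89.1% of all values in the table, and whether it shares reads with other precursors was not tested. The other 7 low libraries held at most 8.72 CPM.

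The makeup of the libraries moved with the division as well. The 5 most abundant precursors took 62.6% ± 6.52 of the counts in high libraries (SD, n = 9) and 56.4% ± 1.11 in low libraries (SD, n = 10). The precursor that gained the most in mean share held 18.2% ± 11.3 in high libraries and 11.1% ± 1.26 in low ones, from 7.34% in Q111 replicate 1 to 42.3% in Q20 replicate 2, and was above the low range in 4 of 9. The next held 12.8% ± 3.36 against 9.26% ± 0.839. The precursor that lost the most held 5.77% ± 1.84 against 9.70% ± 1.03, and was under the low range in 8 of 9 high libraries. CPM is a share of a fixed total, so a gain in abundant precursors lowers the CPM of all others. The part of this in the 7 lower precursors was not tested, beyond the change of scaling that leaves 3 of them at least 1 lower.

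The 33 libraries outside the division were used to look at the same relation in data that had not chosen the precursors. Of these, 5 reached 40 CPM of mir-205: Q175 male replicates 1 to 4 at 137, 521, 139 and 245 CPM and Q175 female replicate 4 at 111 CPM. The WT males lay at 0.82, 3.18, 6.16 and 5.48 CPM. The 0.82 CPM, in WT male replicate 2, was 3 counts, the floor of detection, and entered the slopes below as it stands. The 24 females other than the library labelled Q140 female replicate 2 ran from 1.77 to 111 CPM, with a median of 6.45 CPM. Their summed share of the 32 precursors ran from 0.151% to 0.308%, below 8 of the 9 high males. Much of that share was MI0000553 and MI0001151, with medians of 748 and 713 CPM in these 24 females. The set of 20 that holds this pair summed to a median of 2048 CPM there. The share is therefore made up differently in females and males, and it was not taken without the pair.

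Several libraries parted mir-205 from the 32 precursors. WT male replicate 3 held 6.16 CPM of mir-205 with 408 CPM of MI0000166, and the 32 took 0.772% of its counts, with 14 of the 32 above every low male, as were 32.1% of all 246 precursors. The library labelled Q140 female replicate 2 held 23.0 CPM of mir-205 with 2456 CPM of MI0000166 and a share of 2.49%, with 15 of the 32 above every low male, as were 17.5% of all 246. Q175 female replicate 4, at 111 CPM of mir-205, held 35.5 CPM of MI0000166 and a share of 0.308%, with 6 of the 32 above every low male, as were 32.1% of all 246. In the 4 Q175 males, 12 to 15 of the 32 were above every low male, and of all 246 precursors 66 (26.8%), 26 (10.6%), 58 (23.6%) and 34 (13.8%) were in replicates 1 to 4. These libraries are of the other series. Their set of 12 summed to 25.5 to 77.4 CPM, while the other 20 summed to 7449 to 15729 CPM.

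**Figure D4:**
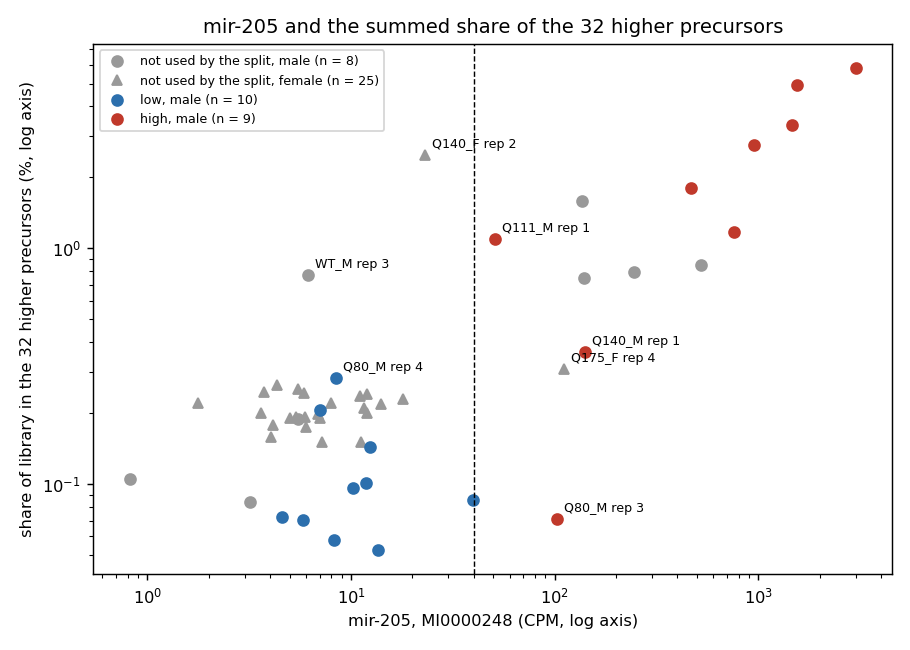
Summed share of the 32 higher precursors in a library (%, log axis) against mir-205 (CPM, log axis), 1 point per library, with circles for males, triangles for females and the dashed line at 40 CPM. Q80_M replicate 3 lies low at 0.0709% in spite of 102.8 CPM of mir-205, while WT_M replicate 3 (0.772%) and Q140_F replicate 2 (2.49%) lie high under 40 CPM. In the females other than Q140_F replicate 2 much of the share is MI0000553 and MI0001151.

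The relation was tested in the 33 libraries as the slope of each precursor on log2(CPM + 1) of mir-205 within groups of 1 genotype and sex, with edgeR's quasi-likelihood F test and 23 residual degrees of freedom. Of 353 precursors tested, 0 had a positive slope with an adjusted p under 0.05 (0%), and 0 were called in either direction. At an unadjusted p under 0.05 there were 29, of which 23 had a positive slope (6.52%), and DESeq2's Wald test called 12, 11 of them positive. Only 24 of the 32 higher precursors passed the filter on low counts here. Of these 24, 22 had a positive slope, as had 202 of all 353 precursors. At an unadjusted p under 0.05, 13 of the 24 had a positive slope. The median slope of the 24 was 0.72, against 0.01 for all 353. The precursors of the 24 with a negative slope were MI0000553 and MI0001151. Of the 7 lower precursors 6 were tested, with 2 positive slopes, 0 with an unadjusted p under 0.05 and a median of -0.01.

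Precursor MI0000694 had the lowest p, with a slope of 1.45 log2 units per log2 unit of mir-205 (SE 0.34, adjusted p 0.0647 by edgeR). DESeq2 called it, at an adjusted p of 0.000646. Its slope was 1.03 in the WT and Q175 libraries alone and 2.09 in the females of the other series alone, with adjusted p of 0.460 and 0.104 by edgeR. In those females without the library labelled Q140 female replicate 2 it was 0.63. Leaving out single libraries moved that adjusted p between 0.0315 and 0.326. MI0000166 had a slope of 1.16 (SE 0.39, adjusted p 0.205 by edgeR and 0.0081 by DESeq2), and MI0004692 a slope of 0.00 (adjusted p 0.996 by edgeR).

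These counts moved with single libraries. The share of positive slopes over all precursors was not taken in the settings below, where the median slope of all precursors ran from -0.02 to 0.02. Without the library labelled Q140 female replicate 2, 23 of the 32 were tested, 19 had a positive slope, 6 of these at an unadjusted p under 0.05, against 6.02% of the 349 precursors tested, and the median slope was 0.41. The slope of MI0000694 was then 0.95 and that of MI0000166 was 0.64. Without Q175 female replicate 4, edgeR called 6 precursors, all 6 positive, and 19 of the 24 had a positive slope with an unadjusted p under 0.05, against 8.22% of all 353. Without WT male replicate 3, 18 of 20 tested were positive and 11 had an unadjusted p under 0.05, against 6.34% of all 347. Within the WT and Q175 libraries alone 20 of 22 tested were positive, 4 of them at an unadjusted p under 0.05, against 5.85% of all 325. Within the females of the other series 14 of 17 were positive, 13 of them at an unadjusted p under 0.05, against 9.67% of all 331. That count rested on the library labelled Q140 female replicate 2. In the same females without it, an alternative chosen after seeing the data, 7 of 17 were positive, 1 of them at an unadjusted p under 0.05, against 6.06% of all 330, and the median slope was -0.02. The set of 12 had 6 members tested, all 6 positive with 2 at an unadjusted p under 0.05, and the set of 20 had 18 tested, 16 positive with 11.

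**Figure D5:**
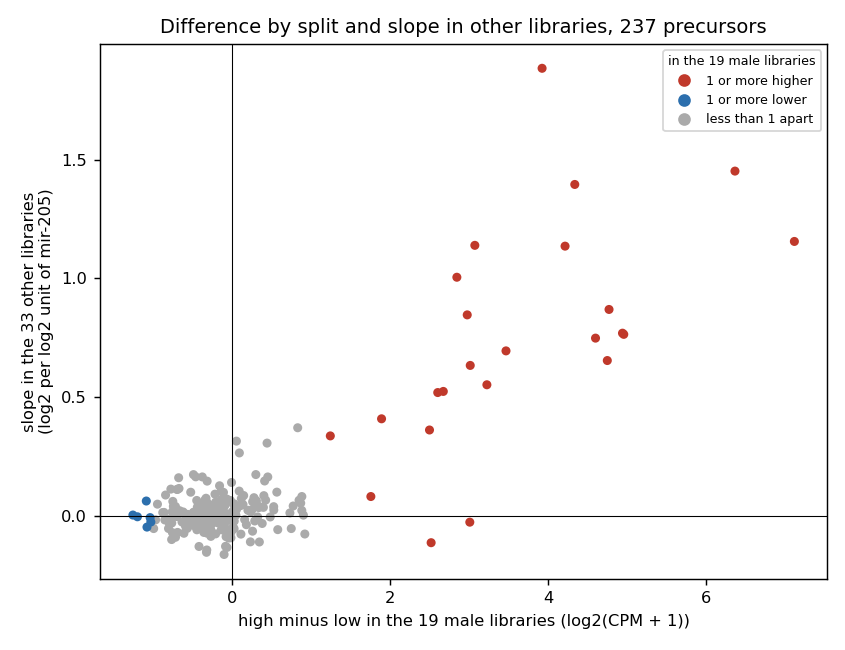
Slope on mir-205 in the 33 libraries outside the division (log2 per log2 unit) against the high minus low difference in the 19 males (log2(CPM + 1)), 1 point for each of 237 precursors measured in both. Of the 24 higher precursors shown 22 have a positive slope, with a median of 0.72, and 19 of 23 without the library labelled Q140 female replicate 2.

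The Q175 males, all above 40 CPM of mir-205, and the WT males, all below it, were also set side by side without a test, within 1 series. Of the 32 higher precursors 29 were higher in Q175 males, with a median log2 difference of 1.16, against 86 of all 246 and a median of -0.13. In 6 of the 32 all 4 Q175 males lay above all 4 WT males, as in 8 of all 246 (3.25%). Of the 7 lower precursors 5 were lower in Q175 males, with a median of -0.38. Most of the 246 were lower there too, since only 86 were higher, so the count of 5 says little about the 7. WT and Q175 mice were housed apart, so allele and housing cannot be told apart here.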

How the data were processed

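Small RNA from gonadal white fat was extracted with a Qiagen miRNeasy kit and sequenced with Illumina libraries, per the labels' protocols. Per the submitters' processing notes, CASAVA 1.8.2 was used. Which aligner, genome build, miRBase release and counter were used is not given in the sources used here. As deposited, the tables hold the authors' estimated counts for 1187 precursors in 52 libraries, of which 89.1% were whole within 1e-04. The authors also deposited RPKM values, which were used only to recover precursor lengths (263 precursors with at least 100 counts, all whole within 0.01).

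The precursors, the lists and the libraries were chosen with earlier results of these data known. Levels are CPM of the column total, and differences are on log2(CPM + 1), which understates changes of scarce precursors. Count tests were planned for whole numbers, so the estimated counts were first rounded. edgeR 4.0.16 in R 4.3.3 (quasi-likelihood, robust, TMM) was run with Benjamini-Hochberg adjustment at 0.05 on precursors with at least 10 counts in 3 (alleles) or 4 libraries (slopes). It was also run on simulated counts with the same fixed dispersion for every precursor. That setting does not carry the spread between libraries seen here, so it does not show how the fits behave on these data. DESeq2 1.42.0 was an alternative. Exact tests used scipy 1.17.1.

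The planned rule named the 15 precursors with the largest differences each way and the precursors with the lowest p. It was shortened to 2 each way, since the files pair the accessions with no names. Further accessions (MI0000553 and MI0001151) were named after their values were seen. Among all precursors, 49 shared identical values with another, none of them among the 32 higher ones. The closest of 27 pairs of libraries within a group gave a chi-square per degree of freedom of 64.2, and all were kept as separate libraries. All columns were matched to a sample.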

Additional observations from a re-analysis of the deposited data

Results flagged for a closer look

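Single libraries lay far from the other 3 of their allele, by Dixon's 95% limit for 4 values, in 13 of 20 checks on the printed precursors. The precursors, mir-205 among them, had been chosen for their spread between these libraries. The count of 13 therefore cannot be set against a rate of chance, and it is given as a description.

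For mir-205, MI0000248, Q20 male replicate 2 held 761 CPM where the other Q20 males held 4.60 to 8.29. Q140 male replicate 3 held 3019 CPM where the other Q140 males held 7.02 to 141. Both are high libraries.

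MI0000166 stood apart in 1 high library in each of 4 alleles, of which Q80 has 3 high libraries and Q140 has 2. It held 1911 CPM in Q20 male replicate 2 (others 4.87 to 16.6), 17993 CPM in Q80 male replicate 1 (others 47.3 to 1329), 793 CPM in Q111 male replicate 1 (others 18.95 to 114) and 32136 CPM in Q140 male replicate 3 (others 7.54 to 1704). MI0000694 did so in 3 of these libraries, at 281 CPM in Q20 male replicate 2 (others 0 to 1.04), 133 CPM in Q111 male replicate 1 (others 1.26 to 10.1) and 1382 CPM in Q140 male replicate 3 (others 1.82 to 71.0).

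MI0025035 stood apart in low libraries. It held 2071 CPM in Q20 male replicate 4, where the next Q20 male held 8.72. It held 329.5 CPM in Q80 male replicate 4 and 147 CPM in Q111 male replicate 3, where the other libraries of those alleles were at or under 0.0177 and 0.0130. Q140 male replicate 2 reached 0.824 CPM, which is about 3 counts, the floor of detection.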

How the results depend on the processing

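All 32 higher precursors stayed above 0 and all 7 lower ones below 0 under the 31 alternatives run for the high minus low difference. Both sets were chosen from these same libraries, so a kept sign was largely built in. Of the 32, 25 stayed at least 1 higher within lane 3 alone. Of the 7, 3 stayed at least 1 lower with TMM scaling and 2 without Q92 male replicate 2. The number at least 1 higher was 60 without the 5 most abundant precursors in the total, 55 with a mean of at least 1 CPM and 17 with a mean of at least 50 CPM, and 28 to 36 with single libraries left out. The number at least 1 lower was 3 with TMM scaling, 3 without the 5 most abundant precursors, 4 with the division at 20 CPM and 30 with only the high libraries above 400 CPM, an alternative chosen after seeing the data. With single libraries left out it ran from 2 (without Q92 male replicate 2) through 4 (without Q140 male replicate 3 or Q20 male replicate 2) to 11 (without Q140 male replicate 1 or Q80 male replicate 3). Within lane 1 alone the counts were 38 higher and 7 lower, within lane 3 alone 29 and 6, and within alleles 29 and 9. The cause of these shifts was not tested, apart from the filters, which change the number of precursors.

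With single libraries left out, the exact p of the division by allele ran from 0.369 to 0.812, by lane from 0.638 to 1, and by depth (permutation) from 0.0343 to 0.222. It was 0.0211 for depth with the division at 100 CPM. Calls by allele were 12 with DESeq2 and 0 to 3 with single libraries left out (3 without Q92 male replicate 1, 2 without Q20 male replicate 2, 1 without Q92 male replicate 2). Calls by slope were 12 with DESeq2, 1 in females alone, and 0 to 6 with single libraries left out (6 without Q175 female replicate 4 or Q175 male replicate 4, 5 without Q92 female replicate 1 or 2, 4 without Q92 female replicate 4, 3 without Q92 female replicate 3, 2 without Q111 female replicate 2 or Q175 female replicate 3, 1 without Q140 female replicate 3 or Q175 male replicate 2).

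Replicate numbers did not pair the libraries (mean correlation of same-numbered libraries -0.0711 in the 19 males and -0.0240 in the others). With the replicate number as a block, 32 were higher and 8 lower, and edgeR called 0 by allele and 0 by slope.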
